A study of Homo sapiens with 6 samples.

Results

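The aminoacyl-tRNA synthetases were described here as 37 genes in the human neuroblastoma line SH-SY5Y, chosen by name out of the 60612 genes of the deposited table. They are 17 genes for cytosolic enzymes, 2 genes (GARS1 and KARS1) that each encode both the cytosolic and the mitochondrial form, 16 genes for mitochondrial enzymes, and AIMP1 and AIMP2, 2 scaffold proteins of the cytosolic multisynthetase complex. All 37 names stood on 1 row each, and all 37 were high enough to test. The study compared 3 libraries from SH-SY5Y cells infected with a control vector with 3 from cells infected to overexpress CDKN2B-AS1, a long noncoding RNA antisense to the CDKN2B tumour suppressor gene. All 6 libraries thus come from 1 cell line that carries a vector. The clone, the promoter of the vector and the time after infection are not given in the sources used here, and the series' title speaks of a mutation where its design text and sample labels speak of overexpression.

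An aminoacyl-tRNA synthetase joins an amino acid to its tRNA, using ATP, so that the ribosome can read the codon. The enzymes fall into class I and class II by the fold of their catalytic domain. Mitochondria keep a set of their own, encoded in the nucleus and imported, which charges the mitochondrial tRNAs. In the cytosol several synthetases are bound with AIMP1, AIMP2 and EEF1E1 in the multisynthetase complex. Uncharged tRNA activates the kinase GCN2, and through it the transcription factor ATF4, which is known to bind C/EBP-ATF response elements in many genes of amino acid supply, cytosolic synthetases among them. Neurons are sensitive to defects in these enzymes, and inherited variants of GARS1, AARS1 and YARS1 are known causes of peripheral neuropathy.

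The targeted RNA itself was little higher in the libraries labelled overexpression. CDKN2B-AS1 stood at 0.272, 0.288 and 0.191 FPKM (the fragments of a gene scaled by its length and by the total of the library) in control vector replicates 1, 2 and 3, and at 0.338, 0.304 and 0.353 FPKM in labelled overexpression replicates 1, 2 and 3. The groups did not overlap, at means of 0.250 ± 0.0522 and 0.332 ± 0.0252 FPKM (SD, n = 3 each, exact two-sided permutation p = 0.1, the smallest that 3 against 3 allow). Depth ran from 20466583 to 48996425 fragments per library. Of the adrenergic neuroblastoma markers, 7 of 8 were high enough to test and TH was near 0. Epithelial markers summed to 0 to 0.662 FPKM and immune markers to 0 to 0.738 FPKM per library, with PTPRC and CD3E at 0, while fibroblast markers, mainly LUM and PDGFRB, summed to 23.5 to 35.6 FPKM in control vector and 25.4 to 37.1 FPKM in labelled overexpression libraries. Control vector replicate 3 held the highest control value for 22 of the 37 synthetase and scaffold genes and the lowest for 13. These counts were not made over all genes. The column names carry the tags LVx1 for control and LVx2 for overexpression, which no label explains, and what they stand for cannot be told apart from the treatment. Separate cultures are not stated either, so a p-value here refers to variation among these 6 libraries, possibly technical.

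Promoter sequences are shown because 8 of the genes hold a shared motif within the promoter window. RefSeq promoters (GRCh38.p14, 250 bases before to 50 bases after a start site) were found for 32 of the 37 genes, not for AARS2, LARS1, VARS1, VARS2 and YARS1. The letters TGATGNAA, the core of the C/EBP-ATF response element, were searched on both strands. They stood in 6 of 14 cytosolic genes, in GARS1 but not KARS1, in 1 of 14 mitochondrial genes and in 0 of 2 scaffold genes, and so in 8 of 32 genes (25%). Of all 35116 promoters of that length 3.62% held them, as did 4.46% of all 27305 genes with a promoter and 2.51% of the 8673 tested genes with one. The 8 matches are printed on the strand that reads the motif, with the motif in capitals and 10 bases on either side.
AARS1: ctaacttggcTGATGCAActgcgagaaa
CARS1: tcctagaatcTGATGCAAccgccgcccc
GARS1: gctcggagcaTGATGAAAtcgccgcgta
IARS1: cgcacggaggTGATGCAAcgcgctgaaa
MARS1: aatccctcgcTGATGCAAccggaaccgg
NARS1: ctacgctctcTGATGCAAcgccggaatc
TARS1: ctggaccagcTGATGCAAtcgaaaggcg
YARS2: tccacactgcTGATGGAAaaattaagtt
The windows lie at chr16:70289676-70289703 (plus strand) for AARS1, chr11:3057408-3057435 (plus) for CARS1, chr7:30594835-30594862 (minus) for GARS1, chr9:92293693-92293720 (plus) for IARS1, chr12:57488054-57488081 (minus) for MARS1, chr18:57621805-57621832 (minus) for NARS1, chr5:33440957-33440984 (minus) for TARS1 and chr12:32756077-32756104 (minus) for YARS2. Counted from the start site as 0 in the direction of the gene, the first base of the match was at -2 in CARS1, -33 in GARS1, -13 in IARS1, -4 in MARS1, 14 in NARS1 and 2 in TARS1, and further away at -187 in AARS1 and -197 in YARS2. The 6 genes with the exact letters TGATGCAA were all cytosolic, and those letters, counted after the matches were seen, stood in 0.866% of all promoters. CARS1, GARS1 and TARS1 each had more than 1 promoter listed, with the motif in only 1 of them. Their positions are counted from the start site of that promoter. A match describes these letters and is no measured binding site.

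The control vector means of the genes spanned from 2.41 to 250 FPKM. FARSA, the catalytic subunit of cytosolic phenylalanyl-tRNA synthetase, stood far above the rest at 249, 273 and 228 FPKM in control vector and 238, 233 and 203 FPKM in labelled overexpression libraries. KARS1 (lysyl), AIMP2, MARS1 (methionyl) and SARS1 (seryl) followed at control vector means of 87.7, 82.6, 78.2 and 73.8 FPKM, and their control libraries overlapped from each to the next. WARS2, the mitochondrial tryptophanyl enzyme, was the lowest. In the order of the 37 levels, only 3 neighbouring pairs were separated in the 3 control libraries, namely FARSA above KARS1, SARS1 above QARS1 and TARS2 above FARSB.

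**Figure D1:**
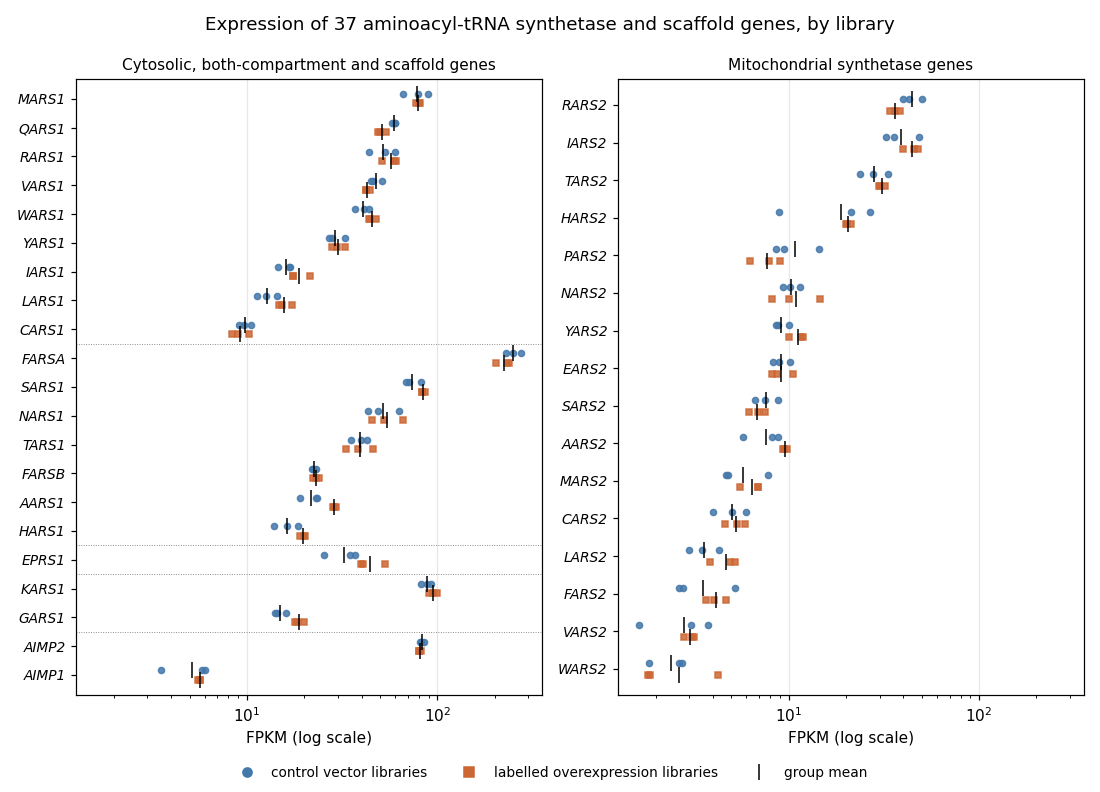
FPKM (log axis) of the 37 genes in each of the 6 libraries, with control vector libraries as circles, labelled overexpression libraries as squares and group means as black ticks; dotted lines part class I, class II, EPRS1, the genes for both compartments and the scaffold genes. FARSA lies at 203 to 273 FPKM, above every other gene, and most of the mitochondrial genes lie below the cytosolic ones.

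Cytosolic synthetase messages were more abundant than mitochondrial ones. The median cytosolic gene stood at 39.3 FPKM and the median mitochondrial gene at 8.37 FPKM in the control vector libraries. The 17 cytosolic genes together reached 4.01, 4.29 and 4.02 times the summed FPKM of the 16 mitochondrial genes in control vector replicates 1, 2 and 3, and 4.20, 3.99 and 4.002 times in labelled overexpression replicates 1, 2 and 3. The groups overlapped in this ratio, whose means were 4.11 ± 0.161 and 4.07 ± 0.119 (SD, n = 3 each). RARS2 (mitochondrial arginyl), IARS2 (mitochondrial isoleucyl) and TARS2 (mitochondrial threonyl) were the highest of the mitochondrial genes, at 44.5, 38.7 and 28.1 FPKM in control vector libraries.

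The order of levels depended in part on the gene length the authors divided by. For all 37 genes that length covers every exon listed for the gene in the deposited data. It was 0.987 times (TARS1) to 6.59 times (GARS1) the length of the principal transcript in GENCODE release 29, over 2 times in 16 genes. For TARS1 it was 4257 bases, against 4314 bases for the principal transcript. The exons of a gene together cannot be shorter than a transcript of the same annotation. The deposited and the principal lengths thus come from different annotations, and the ratios include that difference. Per principal transcript, GARS1 (glycyl) moved from rank 22 to rank 7 and HARS1 (histidyl) from rank 20 to rank 8 of the 37, while FARSA stayed first and WARS2 last. Among 14 amino acids with a separate cytosolic and mitochondrial gene in the set, the cytosolic gene was the higher by the control means in 12 per exon length and in 13 per principal transcript length. IARS1 stood at 0.412 times IARS2 per exon length and 1.71 times per principal transcript length, HARS1 at 0.857 and 3.35 times HARS2, and TARS1 at 1.40 and 0.923 times TARS2. The difference between compartments thus held under both lengths for the groups, while the order within these 3 pairs did not. The widest gaps per exon length were FARSA at 70.3 times FARS2, VARS1 at 16.8 times VARS2 and WARS1 at 16.8 times WARS2.

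**Figure D2:**
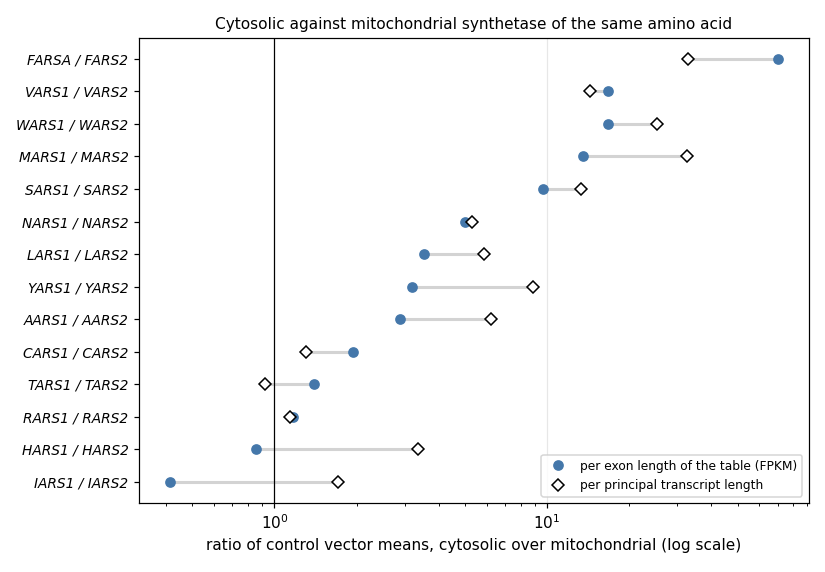
Ratio of the control vector mean of the cytosolic gene to that of the mitochondrial gene for the same amino acid (log axis), for 14 pairs, computed per exon length as in FPKM (circles) and per principal transcript length (diamonds), with the line at equal levels. The circles for HARS1/HARS2 and IARS1/IARS2 lie below 1 and their diamonds above it, and TARS1/TARS2 does the opposite.

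No synthetase or scaffold gene passed the test between the groups. In limma-trend on log2(FPKM + 0.5) with Benjamini-Hochberg adjustment over 13984 tested genes, 0 of 37 had an adjusted p under 0.05, beside 1.14% of all tested genes (0.529% higher and 0.608% lower). Over all genes 74 were called higher and 85 lower, and with values rescaled to a common total 181 and 52. At an unadjusted limma-trend p under 0.05 there were 4 of 37, beside 17.7% of all tested genes (10.4% higher and 7.34% lower). EPRS1, AARS1 and GARS1 were higher and RARS2 lower. With limma-voom on recovered fragments 0 of 37 passed after adjustment, beside 127 of the 13984 tested genes. At an unadjusted limma-voom p under 0.05 there were 5 of 37, beside 2446 of the 13984. The 95% intervals of all 37 log2 fold changes lay within a 2-fold change in either direction, and those of 23 within 1.5-fold. For 14 of the 17 cytosolic genes the interval lay within 1.5-fold, and for 7 of the 16 mitochondrial genes. Mitochondrial genes had the wider intervals, with a median standard error of 0.20 against 0.12 for cytosolic genes on the log2 scale. In bulk RNA a change in the number of cells of a kind and a change in the RNA per cell cannot be told apart.

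The libraries of the groups did not overlap for 13 of the 37 genes, beside 24.1% of all tested genes (14.2% higher and 9.9% lower), with 10 higher and 3 lower in labelled overexpression. The log2 fold change was above 0 for 28 of the 37, beside 56.8% of all tested genes. Of the 17 cytosolic genes 7 were entirely higher and 2 entirely lower, and of the 16 mitochondrial genes 2 and 1. The median log2 fold change was 0.08 for cytosolic and 0.14 for mitochondrial genes, beside 0.05 for all tested genes, so the medians were 0.03 and 0.09 above that of all genes. The cytosolic median depended on single libraries, at 0.02 without control vector replicate 2 and 0.18 with replicate 3 of that group left out. Leaving out control vector replicate 1 or 3 put it above the mitochondrial median (0.13 against 0.11, and 0.18 against 0.11), so the order of the 2 medians was not stable. With the trend on gene length removed they were 0.0012 and 0.07, beside 0.0063 for all tested genes. On a common total for each library the median of all genes was 0.15, the 2 medians stood 0.04 and 0.09 above it, and 13 of the 37 were separated, all higher, beside 26.7% of all genes. With median-of-ratios factors 5 were entirely higher and 4 entirely lower, beside 23.8%. Without control vector replicate 3 there were 20 separated genes, 15 higher and 5 lower, beside 38.4% of all tested genes.

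**Figure D3:**
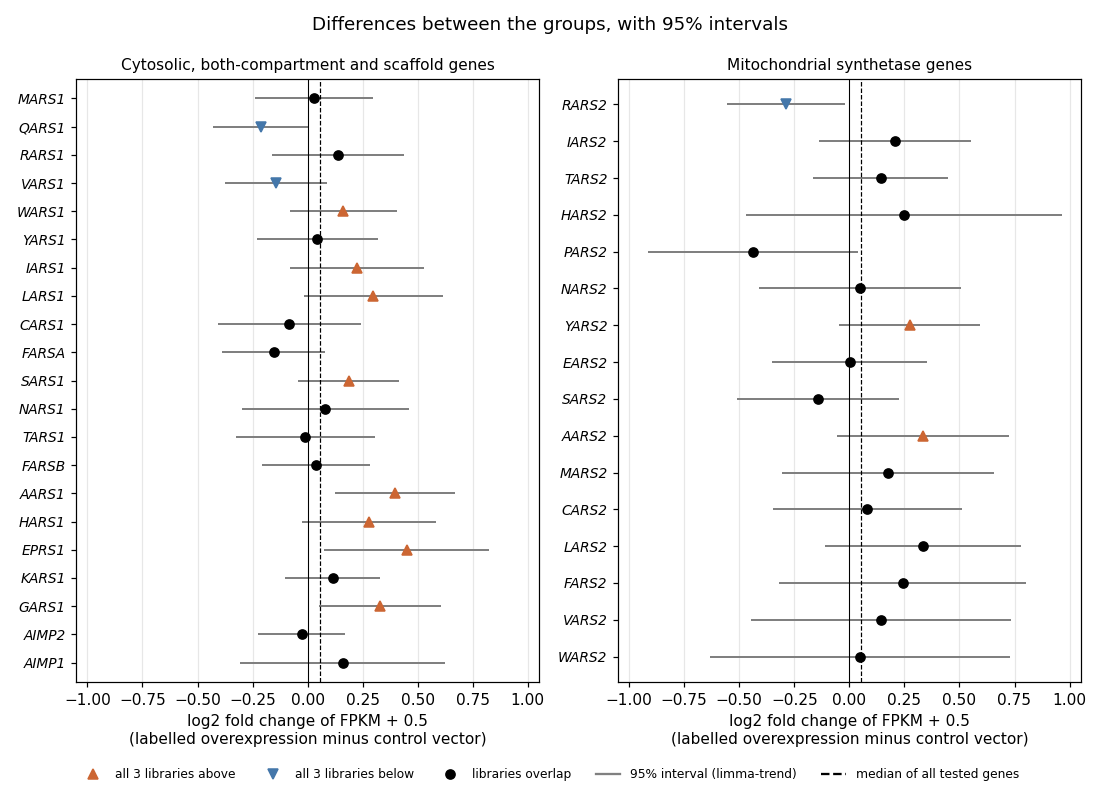
Log2 fold change of each gene, labelled overexpression minus control vector on the log2(FPKM + 0.5) scale, with its 95% interval from limma-trend; triangles mark genes whose 3 libraries all lie above or below the 3 controls, and the dashed line is the median of all tested genes at 0.05. Every interval stays within -1 to 1, and EPRS1 at 0.45 and PARS2 at -0.44 are the outermost points.

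Within the multisynthetase complex, EPRS1 had the largest log2 fold change of the set. EPRS1 (ENSG00000136628, chromosome 1, 219968600 to 220046530, minus strand) joins a class I glutamyl and a class II prolyl enzyme in 1 polypeptide. It stood at 34.9, 25.5 and 37.1 FPKM in control vector and 40.5, 39.7 and 53.1 FPKM in labelled overexpression libraries. All labelled overexpression libraries were above the controls, with control replicate 2 lowest and overexpression replicate 3 highest. The control mean was 32.5 ± 6.17 FPKM and the other 44.4 ± 7.51 FPKM (SD, n = 3 each), for a log2 fold change of 0.45 (SE 0.17, 95% interval 0.07 to 0.83, limma-trend Benjamini-Hochberg adjusted p = 0.209). Without control vector replicate 2 the log2 fold change was 0.29.

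LARS1 (leucyl) and IARS1 (isoleucyl), 2 large class I enzymes of the complex, were also higher in every labelled overexpression library. LARS1, whose protein also serves as a leucine sensor of the mTORC1 pathway, stood at 12.6, 11.3 and 14.4 FPKM against 14.7, 15.4 and 17.2 FPKM. IARS1 stood at 16.6, 14.6 and 16.8 FPKM against 17.5, 17.5 and 21.4 FPKM. Their log2 fold changes were 0.30 and 0.22, with limma-trend Benjamini-Hochberg adjusted p of 0.306 and 0.422. With the trend on gene length removed, the log2 fold change was 0.08 for LARS1 and 0.001 for IARS1, the longest of the 37 genes in the table at 22418 bases. With median-of-ratios factors IARS1 remained separated and LARS1 did not.

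QARS1, the glutaminyl enzyme, was lower in every labelled overexpression library under the deposited scaling. It stood at 57.5, 59.6 and 59.6 FPKM in control vector and 50.2, 48.5 and 54.0 FPKM in labelled overexpression libraries. Its means were 58.9 ± 1.199 and 50.9 ± 2.82 FPKM (SD, n = 3 each), with a log2 fold change of -0.21 (SE 0.10, limma-trend Benjamini-Hochberg adjusted p = 0.298). The sign held in each of 17 alternative settings, at -0.26 to -0.10. It could not flip in those that change only the filter, the mean-variance trend or the replicate block. The separation was lost when values were rescaled to a common total.

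The other members of the complex overlapped between the groups. MARS1 stood at 88.9, 79.5 and 66.0 FPKM against 80.0, 80.8 and 76.9 FPKM, and RARS1, the cytosolic arginyl enzyme, at 53.2, 43.5 and 59.5 FPKM against 51.4, 60.3 and 59.3 FPKM. KARS1, which also makes the mitochondrial lysyl enzyme, stood at 81.9, 88.7 and 92.7 FPKM against 95.02, 99.5 and 90.4 FPKM. AIMP2 had the smallest standard error of the set (0.09), at 81.1, 84.6 and 82.0 FPKM against 80.5, 82.1 and 80.3 FPKM, though 29.1% of its exon length is shared with EIF2AK1 on the other strand. AIMP1, also known as the precursor of the cytokine EMAP II, stood at 3.55 FPKM in control vector replicate 1 and at 5.56 to 6.02 FPKM in the other 5 libraries. Levels within the complex thus ran from 5.12 FPKM for AIMP1 to 87.7 FPKM for KARS1 in the control vector means.

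Among cytosolic enzymes outside the complex, AARS1 had the smallest p of the 37 genes. AARS1 (ENSG00000090861, chromosome 16, 70251983 to 70289707, minus strand), the class II alanyl enzyme and 1 of the 8 genes with the promoter motif, stood at 23.0, 23.4 and 19.0 FPKM in control vector and 29.3, 28.5 and 28.5 FPKM in labelled overexpression libraries. The lowest labelled overexpression library was above the highest control. The control mean was 21.8 ± 2.46 FPKM and the other 28.8 ± 0.479 FPKM (SD, n = 3 each), for a log2 fold change of 0.40 (SE 0.12, 95% interval 0.13 to 0.67, limma-trend Benjamini-Hochberg adjusted p = 0.148). Over the 17 alternatives it ranged from 0.23 to 0.51, and its Benjamini-Hochberg adjusted p from 0.0659 (limma-trend on a common total) to 0.425 (with the trend on gene length removed).

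GARS1, also with the motif, was higher in every labelled overexpression library. GARS1 (ENSG00000106105, chromosome 7, 30580533 to 30634033, plus strand) uses alternative starts to make the cytosolic and the mitochondrial glycyl enzyme. It stood at 14.3, 14.1 and 16.1 FPKM against 18.4, 17.9 and 19.96 FPKM, with all labelled overexpression libraries above the controls and a log2 fold change of 0.33 (SE 0.12, limma-trend Benjamini-Hochberg adjusted p = 0.214). With the trend on gene length removed it was 0.12 for GARS1 and 0.23 for AARS1. SARS1 and WARS1 were separated by less. SARS1 stood at 68.6, 71.0 and 81.9 FPKM against 85.9, 82.7 and 83.0 FPKM, and WARS1, the tryptophanyl enzyme known as an interferon-induced gene, at 41.0, 36.8 and 43.5 FPKM against 47.4, 44.4 and 44.0 FPKM. Their log2 fold changes were 0.19 and 0.16, and neither was separated with median-of-ratios factors. For WARS1 it was 0.06 with the length trend removed and 0.10 without control vector replicate 2.

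Genes with and without the motif had overlapping log2 fold changes. The 8 genes with it had a median log2 fold change of 0.15, from -0.08 for CARS1 to 0.40 for AARS1, and the 24 genes with a promoter lacking it had a median of 0.13, from -0.44 to 0.45. TARS1 (threonyl), with the motif at 1 of its start sites, stood at 39.6, 35.3 and 42.9 FPKM against 38.3, 33.1 and 46.1 FPKM. CARS1 (cysteinyl) stood at 9.67, 10.5 and 9.11 FPKM against 8.99, 8.36 and 10.3 FPKM. NARS1 (asparaginyl), at 48.8, 43.3 and 62.9 FPKM against 52.7, 45.3 and 66.0 FPKM, varied more between libraries of a group than between the groups. The sign of the log2 fold change of TARS1 and CARS1, -0.01 and -0.08, flipped with values rescaled to a common total.

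VARS1, the valyl enzyme that binds the elongation factor EEF1B complex, was entirely lower under the deposited scaling, at 51.3, 45.7 and 45.1 FPKM against 44.1, 42.0 and 42.2 FPKM, with a log2 fold change of -0.14 (SE 0.10, limma-trend Benjamini-Hochberg adjusted p = 0.511). That separation was lost on a common total. YARS1, the tyrosyl enzyme, overlapped between the groups at 32.5, 28.0 and 26.9 FPKM against 29.8, 27.8 and 32.6 FPKM.

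The 2 subunits of cytosolic phenylalanyl-tRNA synthetase, which work as a tetramer of 2 FARSA and 2 FARSB chains, had very unequal message levels. FARSB stood at 22.2, 22.0 and 23.1 FPKM in control vector and 22.9, 22.3 and 23.9 FPKM in labelled overexpression libraries, among the smallest spreads of the set. FARSA was thus 11.2, 12.4 and 9.88 times as high as FARSB in control vector replicates 1, 2 and 3 and 10.4, 10.4 and 8.52 times in labelled overexpression replicates 1, 2 and 3. Per principal transcript length the control mean was 7.47 ± 0.849 and the labelled overexpression mean 6.54 ± 0.732 times (SD, n = 3 each), so the imbalance remained on either length while the groups overlapped. FARSA-AS1, on the other strand, shares 25 exon bases with FARSA and stood at 97.5 FPKM in the control vector mean.

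HARS1 and HARS2, the cytosolic and the mitochondrial histidyl gene, start close together and run in opposite directions. Their RefSeq start sites on chromosome 5 are 85 bases apart, HARS1 on the minus strand at 140691370 and HARS2 on the plus strand at 140691455. The stretch held by both promoter windows, chr5:140691321-140691504 on the plus strand, is shown because both messages start within it, and capitals mark the 86 bases from the HARS1 start to the HARS2 start.
HARS1 and HARS2: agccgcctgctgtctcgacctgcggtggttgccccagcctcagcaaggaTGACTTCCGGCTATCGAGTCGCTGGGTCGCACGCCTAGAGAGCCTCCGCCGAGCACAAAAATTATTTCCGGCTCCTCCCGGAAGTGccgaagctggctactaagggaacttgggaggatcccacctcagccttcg
HARS1 stood at 16.2, 18.6 and 13.9 FPKM in control vector and 20.1, 18.9 and 19.9 FPKM in labelled overexpression libraries, entirely higher in the latter (log2 fold change 0.28, SE 0.14, limma-trend Benjamini-Hochberg adjusted p = 0.321). The log2 fold change of HARS1 was 0.08 with the trend on gene length removed and 0.18 without control vector replicate 3, and the separation was lost with median-of-ratios factors. HARS2 stood at 26.6, 21.3 and 8.87 FPKM against 20.03, 21.3 and 20.2 FPKM. Control vector replicate 3 was thus low for both genes and far lower for HARS2, and HARS1 was 0.607, 0.872 and 1.57 times HARS2 in the 3 control libraries against 1.002, 0.885 and 0.988 times in the 3 others. The log2 fold change of HARS2 was 0.25 with all libraries and -0.21 without control vector replicate 3. HARS1 and HARS2 share 108 exon bases, and HARS1 also overlaps WDR55 on the other strand over 1090 exon bases.

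**Figure D4:**
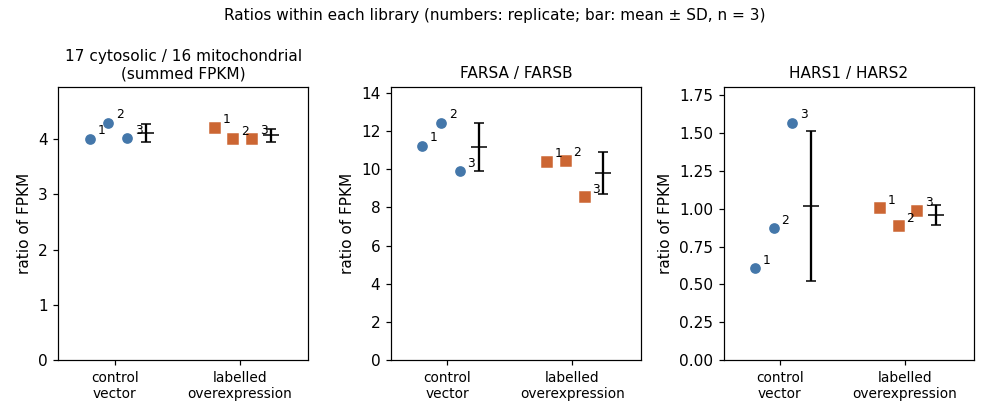
Ratios of FPKM within each of the 6 libraries for the summed cytosolic over the summed mitochondrial genes, FARSA over FARSB and HARS1 over HARS2, with the replicate number beside each point and the mean ± SD (n = 3) as a bar. The summed ratio stays between 3.99 and 4.29, FARSA is 8.52 to 12.4 times FARSB, and HARS1 over HARS2 spreads from 0.607 to 1.57 in the control vector libraries.

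Of the mitochondrial synthetases, RARS2 had the smallest p and was lower. RARS2 (ENSG00000146282, chromosome 6, 87513938 to 87589987, minus strand), the mitochondrial arginyl enzyme, stood at 40.0, 43.1 and 50.3 FPKM in control vector and 36.2, 33.9 and 38.6 FPKM in labelled overexpression libraries. The groups did not overlap, at 44.5 ± 5.28 and 36.2 ± 2.36 FPKM (SD, n = 3 each), with a log2 fold change of -0.29 (SE 0.12, limma-trend Benjamini-Hochberg adjusted p = 0.252). On a common total the sign held and the separation did not. PARS2, the mitochondrial prolyl enzyme, had the lowest log2 fold change of the set at -0.44 (SE 0.21, limma-trend Benjamini-Hochberg adjusted p = 0.319). Its values of 14.3, 9.44 and 8.54 FPKM against 8.97, 6.26 and 7.87 FPKM overlapped, and the control mean rested in part on replicate 1.

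AARS2 and YARS2 were the mitochondrial genes with all labelled overexpression libraries above the controls. AARS2, the mitochondrial alanyl enzyme, stood at 8.18, 5.77 and 8.74 FPKM against 9.78, 9.46 and 9.36 FPKM, with a log2 fold change of 0.33 beside 0.40 for its cytosolic counterpart AARS1. Without control vector replicate 2, the low control for AARS2, these were 0.16 and 0.45. YARS2, the mitochondrial tyrosyl enzyme, stood at 8.81, 8.59 and 10.06 FPKM against 11.6, 10.07 and 11.8 FPKM, so that its groups barely parted. With median-of-ratios factors AARS2 remained separated and YARS2 did not.

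The remaining mitochondrial genes overlapped between the groups. IARS2 stood at 35.8, 32.3 and 48.2 FPKM against 39.6, 45.6 and 47.6 FPKM, and TARS2 at 33.1, 27.6 and 23.6 FPKM against 32.2, 30.2 and 29.9 FPKM. LARS2 (leucyl), FARS2 (phenylalanyl), MARS2 (methionyl) and VARS2 (valyl) had log2 fold changes of 0.34, 0.24, 0.18 and 0.14 at control vector means of 3.60, 3.56, 5.78 and 2.82 FPKM. CARS2 (cysteinyl), NARS2 (asparaginyl), WARS2 and EARS2 (glutamyl) had 0.08, 0.05, 0.05 and 0.001, and SARS2 (seryl) had -0.14. Their limma-trend Benjamini-Hochberg adjusted p ranged upward from 0.414, that of LARS2.

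In several mitochondrial genes 1 library stood apart. Control vector replicate 3 stood at 0.370 times the mean of replicates 1 and 2 for HARS2 and at 0.482 times for VARS2, and at 1.91 times for FARS2 and 1.65 times for MARS2. The median coefficient of variation over control libraries was 20.2% for mitochondrial and 9.69% for cytosolic genes, beside 18.0% for all tested genes, and 10.99% and 7.93% over labelled overexpression libraries, beside 13.5%. In labelled overexpression replicate 2, WARS2 stood at 4.27 FPKM against 1.88 and 1.84 FPKM in the other two. SARS2 shares 48.2% of its exon length with CTC-360G5.8, and VARS2 63.0% with XXbac-BPG118E17.11, each on the same strand, so their fragments were not separable.

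Partners of the synthetases did not pass the test either. Of 13 listed charging partners 12 were tested and 0 passed in limma-trend, beside 1.14% of all tested genes, and 3 had an unadjusted p under 0.05, beside 17.7%. Among these were GATB, a subunit of the mitochondrial amidotransferase that makes glutaminyl-tRNA, at 6.61 ± 0.454 against 4.76 ± 0.453 FPKM, and MTFMT, which formylates mitochondrial initiator methionyl-tRNA, at 7.28 ± 0.826 against 5.16 ± 0.793 FPKM (SD, n = 3 each). The groups did not overlap for GATB or MTFMT under the deposited scaling.

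Of 28 tRNA maturation and export genes 27 were tested, 0 passed in limma-trend, beside 1.14% of all tested genes, and 1 had an unadjusted p under 0.05, beside 17.7%. That gene was CLP1, a kinase of the tRNA splicing endonuclease complex, with a log2 fold change of 0.53. POP4, of RNase P, had -0.26, TSEN34, of the splicing endonuclease, had 0.32, and DDX1, of the tRNA ligase complex, had 0.22. The list's median log2 fold change was -0.07 beside 0.05 for all tested genes.

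Of the elongation factors that carry charged tRNA to the ribosome, EEF1G and EEF1A1 came nearest to the threshold. EEF1G stood at 286 ± 6.94 against 209 ± 19.0 FPKM and EEF1A1 at 515 ± 28.5 against 403 ± 21.7 FPKM (SD, n = 3 each), with limma-trend Benjamini-Hochberg adjusted p of 0.0573 and 0.0922. EEF1B2 and the mitochondrial factor TUFM had log2 fold changes of -0.21 and -0.15, and 0 of the 7 listed genes passed in limma-trend, beside 1.14% of all tested genes, with 2 at an unadjusted p under 0.05, beside 17.7%. EEF1A1 has many processed pseudogenes, so its value is uncertain.

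In the GCN2 and ATF4 response list, 25 of 30 genes were tested, 0 passed in limma-trend, beside 1.14% of all tested genes, and 3 had an unadjusted p under 0.05, beside 17.7%. SLC7A5, a transporter of large neutral amino acids, had a log2 fold change of 0.56 with overlapping groups. MTHFD2, of mitochondrial folate metabolism, EIF4EBP1, an inhibitor of cap-dependent initiation, and PYCR1, of proline synthesis, had -0.35, -0.21 and -0.26. The median was 0.05, as in all tested genes, with 13 of the 25 above 0. DDIT3, in this list, shares 355 exon bases with MARS1 on the other strand and had 0.14.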

How the data were processed

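The authors deposited FPKM per gene and library, with gene length and position, per the file headers. Per the submitters' processing notes, the builds were GRCh38.p13 or hg38 and the tools included featureCounts 2.0.1 and STAR 2.7.9. The strand option of the counting is unknown here, and genes that overlap were treated as not separable. FPKM times length gave steps of 0.01 fragments for values up to 1000 fragments, within 0.001 fragments, from which the depth was recovered, and 44.2% to 49.0% of values were whole, so a count model was not the main test. Genes at 1 FPKM or more in at least 3 of 6 libraries entered limma-trend (limma 3.58.1, R 4.3.3), fitted to log2(FPKM + 0.5) without a block, with Benjamini-Hochberg adjustment at 0.05. Such fold changes understate changes of low genes. The members, lists and motif were chosen with earlier results of these data known. All members were named, with up to 4 genes of smallest p per list, of which some are not reported here. Overlapping genes and DDIT3 were picked after their values were seen. Principal transcripts are the longest of the best APPRIS rank in GENCODE release 29, found for 37 genes by ID. The 16 rows named as pseudogenes of members stood at 0.311 FPKM or less.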

Additional observations from a re-analysis of the deposited data

How the results depend on the processing

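Under each of 17 alternative settings 0 of 37 synthetase and scaffold genes passed (limma, Benjamini-Hochberg). Of the 37, 23 kept the sign of their log2 fold change in every setting. Settings that change only the filter, the mean-variance trend or the replicate block leave the fold change as it is, so no sign could flip there. Over all genes 159 passed, against 0 without a filter on low values and 0 without the mean-variance trend, 269 with 1 FPKM asked of all 6 libraries, 265 with array weights, and 0 to 139 with any library left out (0 without control vector replicate 2 or labelled overexpression replicate 1 or 2, and 3 without control vector replicate 1 or labelled overexpression replicate 3). At an unadjusted limma p under 0.05 there were 2477, 3538 without the filter and 2304 without the trend. Leaving a library out gave 1612 to 2781. Limma-voom called 127 after Benjamini-Hochberg adjustment and had 2446 at an unadjusted p under 0.05. The lack of calls in settings with 0 thus says nothing about the members. The median of mitochondrial genes was 0.25 on a common total and 0.073 with the length trend removed, and that of cytosolic genes 0.19 and 0.0012. With a library left out they ran from 0.10 to 0.18 and from 0.02 to 0.18. Signs flipped on a common total for CARS1 (0.024), TARS1 (0.099) and AIMP2 (0.083), with median-of-ratios factors for EARS2 (-0.043), FARSB (-0.0080), MARS1 (-0.017) and YARS1 (-0.0012), with array weights for EARS2 (-0.030), MARS1 (-0.0015) and NARS2 (-0.098), with the length trend removed for CARS2 (-0.088), EARS2 (-0.12), FARSB (-0.074), MARS1 (-0.088) and YARS1 (-0.11), and in limma-voom for TARS1 (0.015). With a library left out, the log2 fold change ran from -0.056 to 0.21 for CARS2, -0.10 to 0.080 for EARS2, -0.29 to 0.23 for WARS2, -0.061 to 0.28 for AIMP1, -0.062 to 0.23 for NARS1, -0.17 to 0.23 for NARS2, -0.21 to 0.56 for HARS2, -0.086 to 0.13 for MARS1, -0.13 to 0.10 for TARS1, -0.14 to 0.35 for VARS2 and -0.013 to 0.12 for YARS1. Between 13 and 20 of the 37 genes were separated with a library left out, beside 30.6% to 38.4% of all tested genes. The number was 9 with median-of-ratios factors, beside 23.8%. The cause was not tested. With the replicate number as a block 229 genes passed, 0 of them members, and EPRS1 had the smallest adjusted p at 0.0965 (limma). Deviations of same-numbered libraries correlated at -0.02, 0.11 and 0.12, so the numbers do not show pairing. Counts of separated genes, levels per principal transcript and the exact motif letters were added after the data were seen. The lowest gene, WARS2, rested on 198 to 455.25 fragments per library.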
